A study of Mus musculus with 6 samples.

Results

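Transcripts of 9 tissue homing chemokine receptors were followed in mouse RNA-seq libraries labelled as regulatory T (Treg) cells without or with TNFR2. The receptors were Ccr4, Ccr6, Ccr8, Ccr9, Ccr10, Cxcr3, Cxcr4, Cxcr5 and Cxcr6. They were chosen by name, with earlier results of these data known. Each was found through its Ensembl identifier among the 32377 genes of the count table. The study has 2 groups of 3 libraries, labelled TNFR2-deficient Treg and TNFR2 positive Treg, and compares gene expression between them. The labels give no strain, age, tissue, sort or culture, and do not say whether the deficiency came from a mutation, a treatment or a gate on the receptor. Separate animals or cultures are not named for the numbered libraries either. The p-values therefore reflect only how far the libraries of a group lay apart, and that variation may be technical.

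Chemokine receptors are G protein-coupled receptors of the cell surface that sense gradients of secreted chemokines and steer leukocytes towards their source. Signalling runs through the inhibitory G protein Gi to integrin activation and the actin skeleton, and it is ended by RGS proteins, receptor kinases and arrestins. In Treg cells the set of receptors helps to set which tissue the cell enters: CCR4 and CCR8 lead to skin and inflamed tissue, CCR6 to mucosa, CCR9 to the small intestine, CXCR3 to sites of type 1 inflammation and CXCR5 to B cell follicles. Several of these receptors are also carried by other lymphocytes. CXCR4 and CCR9 guide thymocytes, and CXCR5, CXCR4 and CCR6 are present on B cells.

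Total counts were 22465991 to 24038118 in the TNFR2-deficient libraries and 19296082 to 23587552 in the TNFR2-positive libraries, so that 3 counts, taken as the floor of detection, equalled 0.125 to 0.135 CPM in the TNFR2-deficient and 0.129 to 0.153 CPM in the TNFR2-positive libraries. CPM is the read count relative to the TMM-scaled library size. Floors, and the intervals named as counting intervals, cover counting error only, whereas the 95% intervals of a log2FC come from the edgeR fit and include the spread between libraries. Tnfrsf1b, the gene of TNFR2, was at 7.87 ± 0.503 CPM in the TNFR2-deficient libraries and 83.0 ± 2.48 CPM in the TNFR2-positive libraries (SD, n = 3 each), the direction of the labels (log2 fold change, written log2FC, -3.40, edgeR adjusted p = 1.7e-11). The labelled cell type was also checked. The summed level of 6 Treg cell markers was 23.9 to 28.7 CPM in the TNFR2-deficient libraries and 470 to 526 CPM in the TNFR2-positive ones, and all 6 fell. The 6 markers of double-positive thymocytes summed to 2040 to 2150 CPM in the TNFR2-deficient and 107 to 119 CPM in the TNFR2-positive libraries, and all 6 rose. Among them, Rag2 had 0, 4 and 8 reads and Ptcra 0, 1 and 0 reads in the TNFR2-positive libraries. Both passed the filter on low counts only through the TNFR2-deficient libraries. Across all genes tested, 35.1% were called higher and 34.2% lower. The 7 B cell markers summed to 7440 to 7810 CPM in the TNFR2-deficient and 6180 to 6380 CPM in the TNFR2-positive libraries, with 3 higher, 2 lower and 2 not called. Of the other lists, 5 of 7 myeloid markers rose (summed 590 to 632 CPM in the TNFR2-deficient and 361 to 396 CPM in the TNFR2-positive libraries). All 4 erythroid markers rose (10100 to 11600 CPM in the TNFR2-deficient and 2440 to 3930 CPM in the TNFR2-positive libraries). The 1 thymic epithelium marker tested did not pass the threshold, and 2 of that list were at 0 in all TNFR2-positive libraries. TNFR2-positive library 1 stood apart from the other two of its group, with a chi-square per gene of 15.6 and 20.7 against them and 2.59 between them. Without it, each of the 6 receptors called kept its direction and its call, with a log2FC of 2.91 for Ccr9, 0.71 for Cxcr5, -1.75 for Ccr4, -2.81 for Ccr6, -3.15 for Ccr8 and -2.26 for Cxcr6. Fold changes below are TNFR2-deficient over TNFR2-positive. In bulk RNA, fewer cells of a type and less RNA per cell cannot be told apart.

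**Figure D1:**
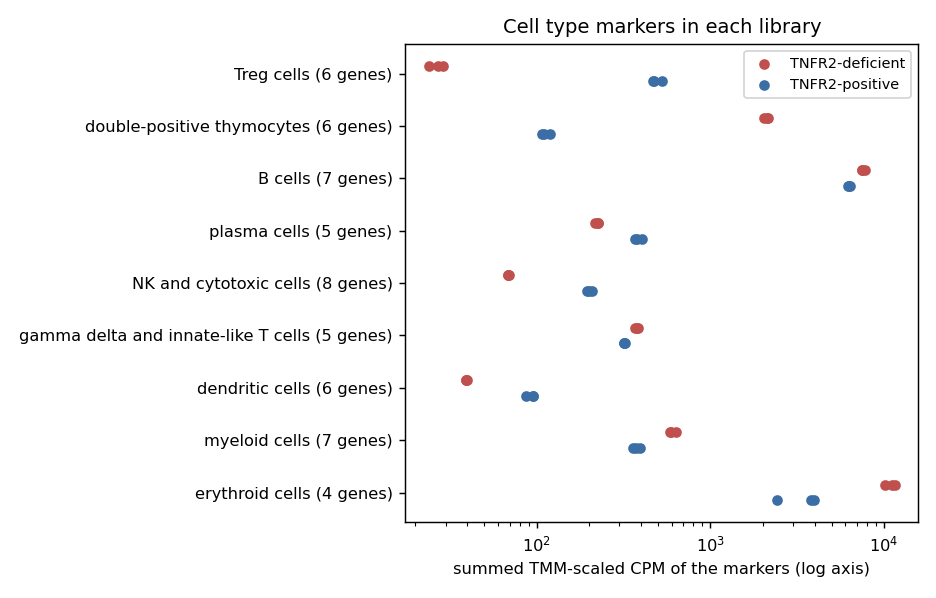
Summed TMM-scaled CPM (log axis) of each list of cell type markers, with 1 point per library, TNFR2-deficient above TNFR2-positive in each row. Treg cell markers lie at 23.9 to 28.7 CPM in the TNFR2-deficient and 470 to 526 CPM in the TNFR2-positive libraries, and double-positive thymocyte markers at 2040 to 2150 CPM in the TNFR2-deficient and 107 to 119 CPM in the TNFR2-positive libraries.

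Of the 9 receptors, 8 passed the filter on low counts. Ccr9 and Cxcr5 were higher in the TNFR2-deficient libraries, Ccr4, Ccr6, Ccr8 and Cxcr6 were lower, and neither Cxcr3 nor Cxcr4 passed the threshold (edgeR quasi-likelihood test, Benjamini-Hochberg adjusted p below 0.05 over 17022 genes). Among all genes tested, 69.3% were called, 35.1% higher and 34.2% lower, so 6 of 8 called is close to the share of the whole table. Ccr8 passed the filter only through its level in the TNFR2-positive libraries. By log2FC, several receptors lay towards an end of the table. The receptors were chosen with earlier results of these data known, so their place in it is a description only. Of the genes tested, 1.42% had a greater log2FC than Ccr9, and 2.57%, 2.93%, 4.93% and 6.86% had a smaller one than Ccr8, Ccr6, Cxcr6 and Ccr4. The median log2FC was -0.86 over the 8 receptors and 0.04 over all genes tested.

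**Figure D2:**
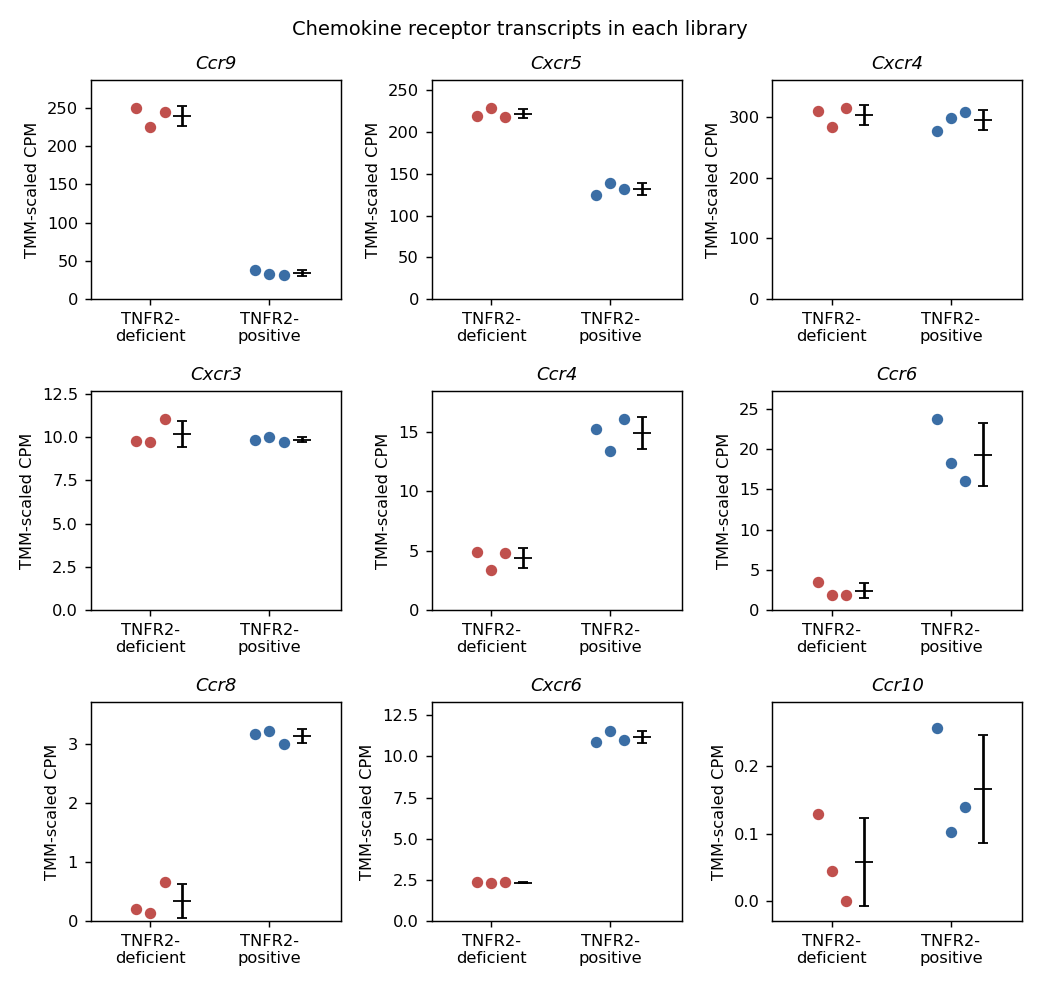
TMM-scaled CPM of each receptor (linear axis, own scale per panel), with 1 point per library, TNFR2-deficient left of TNFR2-positive; black marks give mean ± SD (n = 3). Groups do not overlap for Ccr9, Cxcr5, Ccr4, Ccr6, Ccr8 and Cxcr6 and overlap for Cxcr4, Cxcr3 and Ccr10. The share of all genes without overlap was not counted, so lack of overlap does not set these receptors apart. Listed genes that were not called, such as the plasma cell marker Jchain and the transcription factor gene Gata3, show no overlap either. Of all genes tested, 69.3% were called, which is a different measure.

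On chromosome 9, Ccr9 moved one way and Ccr4, Ccr8 and Cxcr6 the other. The promoters of these genes, the most changed on that chromosome among the receptors described, are shown for that reason. Each is the 250 bases before the RefSeq transcription start in build GRCm38.p6, an older build than the GRCm39 of the counts, written 5′ to 3′ on the strand of the gene. The windows are chr9:123766961-123767210 (plus strand), chr9:114496545-114496794 (minus), chr9:120091883-120092132 (plus) and chr9:123806227-123806476 (plus). Capitals mark matches to the motifs named after the sequences.
Ccr9: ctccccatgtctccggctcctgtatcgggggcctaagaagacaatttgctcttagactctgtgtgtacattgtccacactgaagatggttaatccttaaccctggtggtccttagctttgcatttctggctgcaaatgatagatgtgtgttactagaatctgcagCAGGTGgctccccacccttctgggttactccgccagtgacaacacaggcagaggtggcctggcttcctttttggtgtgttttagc
Ccr4: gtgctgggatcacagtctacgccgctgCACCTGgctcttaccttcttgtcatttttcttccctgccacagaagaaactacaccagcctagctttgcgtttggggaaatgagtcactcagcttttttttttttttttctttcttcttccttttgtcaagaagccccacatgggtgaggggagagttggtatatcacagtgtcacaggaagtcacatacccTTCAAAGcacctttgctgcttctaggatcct
Ccr8: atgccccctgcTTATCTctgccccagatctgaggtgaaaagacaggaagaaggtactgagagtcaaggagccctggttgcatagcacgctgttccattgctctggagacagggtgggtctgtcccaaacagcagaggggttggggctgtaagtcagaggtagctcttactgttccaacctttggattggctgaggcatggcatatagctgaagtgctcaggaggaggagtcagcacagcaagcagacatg
Cxcr6: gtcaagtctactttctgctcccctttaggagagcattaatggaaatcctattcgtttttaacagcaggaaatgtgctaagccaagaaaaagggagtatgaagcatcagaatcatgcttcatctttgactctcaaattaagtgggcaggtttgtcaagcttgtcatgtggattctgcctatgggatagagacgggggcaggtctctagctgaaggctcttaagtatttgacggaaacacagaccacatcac
Motifs were searched on both strands. They were GTAAACA for forkhead factors, TGTGGTT for RUNX factors, CAGGTG as a narrow E-box, AGGTGTGA for T-box factors, AGGTCA for ROR receptors, AGATAA for zinc finger factors of the GATA3 family, CTTTGAA for TCF-1 and its relatives, and the NF-kB motif. Matches to the wider E-box CANNTG, which contains CAGGTG and is found in 66.2% of 32851 such windows, are left in lower case. Ccr9 held CAGGTG at -85 to -80 from the start, and Ccr4 held the same motif on the other strand (cacctg) at -223 to -218. CAGGTG is present in 17.2% of all windows. Ccr4 also held the TCF motif on the other strand at -31 to -25, as do 4.46% of windows, and Ccr8 the GATA motif on the other strand at -239 to -234, as do 9.99%. Cxcr6 held none of the 8 narrower motifs in these letters. The RefSeq table gave windows for 7 of the 9 receptors. Of all windows, 3.17% held the forkhead motif, 4.4% RUNX, 1.12% T-box, 14.0% ROR and 0.356% NF-kB. These matches describe the letters of the windows only.

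Ccr9, the receptor for CCL25 that guides thymocytes and gut-homing T cells, had 249.0, 224.5 and 243.6 CPM in TNFR2-deficient libraries 1 to 3, against 38.0, 32.2 and 31.2 CPM in TNFR2-positive libraries 1 to 3. All TNFR2-deficient libraries were high and the groups were far apart. The mean was 239.0 ± 12.9 CPM in the TNFR2-deficient and 33.8 ± 3.67 CPM in the TNFR2-positive libraries (SD, n = 3 each), a 7.06-fold rise (log2FC 2.82, 95% interval 2.64 to 3.0, SE 0.0837, edgeR adjusted p = 1.81e-10). Double-positive thymocyte markers, among them the recombinase genes Rag1 and Rag2, moved with it (Rag1 at 917.9 ± 72.7 CPM in the TNFR2-deficient and 3.31 ± 0.0785 CPM in the TNFR2-positive libraries), and their part in the result was not tested. The annotated Ccr9 gene shares 22 exonic bases with Slc6a20a on the other strand, 269 with the noncoding Gm17200 and 1932 with AC165425.1. These 3 genes had 38, 9 and 7 counts in the 3 TNFR2-deficient libraries together and 18, 22 and 17 in the TNFR2-positive ones, whereas Ccr9 had 16593 in the TNFR2-deficient and 2183 in the TNFR2-positive libraries. Slc6a20a did not pass the threshold (log2FC 0.94, edgeR adjusted p = 0.143), and without TNFR2-positive replicate 2 it did (log2FC 1.99, edgeR adjusted p = 0.00958). It had 16, 11 and 11 reads in the TNFR2-deficient and 4, 12 and 2 in the TNFR2-positive libraries. Without that replicate it passed the filter on low counts only through the TNFR2-deficient libraries, so the call is a description only.

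Cxcr5, the receptor for CXCL13 that draws B cells and follicular T cells into B cell follicles, had 219.6, 228.2 and 218.2 CPM in the TNFR2-deficient libraries, against 124.2, 138.5 and 131.5 CPM in the TNFR2-positive libraries. The groups did not overlap. Cxcr5 was 1.69-fold higher in the TNFR2-deficient libraries (log2FC 0.76, 95% interval 0.62 to 0.89, SE 0.0611, edgeR adjusted p = 7.82e-07), below the 2-fold mark. Among B cell markers, Cd79a and Cd79b, the signalling chains of the B cell receptor, were higher by 0.76 and 0.88 on the log2 scale (edgeR adjusted p = 3.27e-06 and 9.86e-07). Pax5, the master regulator of the B lineage, was lower (log2FC -0.43, edgeR adjusted p = 0.000247), and the log2FC of Ms4a1 (CD20) was -0.07 (edgeR adjusted p = 0.265). The part of B cells in the Cxcr5 result was not tested. Cxcr5 shares 110 of its 3332 exonic bases with Bcl9l on the other strand, and the strand setting of the counts is not given in the sources used here. Bcl9l did not pass the threshold (93.5 ± 5.79 CPM in the TNFR2-deficient and 106.1 ± 10.8 CPM in the TNFR2-positive libraries, log2FC -0.18, edgeR adjusted p = 0.0608). Its call depended on the processing, since it passed as lower without TNFR2-positive replicate 3 (log2FC -0.26, edgeR adjusted p = 0.0074) and as higher with the relation of fold change to exonic length removed (log2FC 0.17, edgeR adjusted p = 0.0219).

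Cxcr4, the receptor for CXCL12 that holds lymphocytes in bone marrow and thymic cortex, had the highest level of the 9 per kilobase of exon. It had 310.8, 284.5 and 314.6 CPM in the TNFR2-deficient libraries, against 277.5, 298.8 and 309.3 CPM in the TNFR2-positive libraries. The groups overlapped. The log2FC was 0.04 (95% interval -0.10 to 0.18, edgeR adjusted p = 0.607), which bounds a fold change between 0.931 and 1.13. Its direction turned without TNFR2-positive replicate 1 (log2FC -0.01, edgeR adjusted p = 0.913), and it was called lower when the relation of fold change to exonic gene length was removed (log2FC -0.17, edgeR adjusted p = 0.0121).

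Cxcr3, the receptor for CXCL9, CXCL10 and CXCL11 that marks type 1 effector and Treg cells, had 9.77, 9.75 and 11.02 CPM in the TNFR2-deficient libraries, against 9.81, 10.03 and 9.74 CPM in the TNFR2-positive libraries. The groups overlapped, with the highest value in TNFR2-deficient library 3. The log2FC was 0.05 (95% interval -0.17 to 0.26, edgeR adjusted p = 0.686), or -0.02 without TNFR2-deficient replicate 3 and -0.17 with the length relation removed (edgeR adjusted p = 0.886 and 0.166). Tbx21, which encodes T-bet, an activator of Cxcr3 in type 1 T cells, was higher at 11.7 ± 0.965 CPM in the TNFR2-deficient libraries and 7.58 ± 0.849 CPM in the TNFR2-positive ones (log2FC 0.64, edgeR adjusted p = 0.000419).

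Ccr4, the receptor for CCL17 and CCL22 on skin-homing and Treg cells, had 4.93, 3.43 and 4.78 CPM in the TNFR2-deficient libraries, against 15.3, 13.4 and 16.1 CPM in the TNFR2-positive libraries. Every TNFR2-deficient library was below every TNFR2-positive one. Ccr4 was 3.40-fold lower (log2FC -1.77, 95% interval -2.07 to -1.46, SE 0.139, edgeR adjusted p = 6.49e-07).

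Ccr6, the receptor for CCL20 on Th17 cells, mucosal Treg cells and B cells, had 3.50, 1.94 and 1.87 CPM in the TNFR2-deficient libraries, against 23.7, 18.2 and 16.1 CPM in the TNFR2-positive libraries. TNFR2-deficient library 1 and TNFR2-positive library 1 were the highest of their groups, and the groups were far apart. Ccr6 was 7.92-fold lower (log2FC -2.99, 95% interval -3.46 to -2.52, SE 0.214, edgeR adjusted p = 3.05e-07). Rora, which encodes a nuclear receptor of Th17 and innate-like lymphocytes, was lower (log2FC -2.24, edgeR adjusted p = 1.84e-06).

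Ccr8, the receptor for CCL1 and in the mouse also CCL8, found on Treg cells of skin and tumours, had 5, 3 and 16 reads in the TNFR2-deficient libraries, against 74, 63 and 64 reads in the TNFR2-positive libraries. These equalled 0.216, 0.135 and 0.665 CPM in the TNFR2-deficient and 3.171, 3.223 and 2.996 CPM in the TNFR2-positive libraries. TNFR2-deficient library 3 was several times above the other two, and all 3 were far below the TNFR2-positive libraries. Ccr8 was 8.95-fold lower (log2FC -3.16, 95% interval -4.00 to -2.36, SE 0.375, edgeR adjusted p = 1.5e-05). The 24 reads against 201 gave a ratio of 0.111 with an exact 95% counting interval of 0.0693 to 0.169. The size depended on 1 library, since the log2FC was -4.11 without TNFR2-deficient replicate 3 (edgeR adjusted p = 2.22e-06).

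Cxcr6, the receptor for CXCL16 on tissue-resident T cells and natural killer T cells, had 2.38, 2.30 and 2.37 CPM in the TNFR2-deficient libraries, against 10.89, 11.56 and 11 CPM in the TNFR2-positive libraries. The libraries of each group lay close together and the groups did not overlap. Cxcr6 was 4.73-fold lower (log2FC -2.24, 95% interval -2.51 to -1.98, SE 0.12, edgeR adjusted p = 2.57e-08). It lies within the span of Fyco1, a gene on the other strand with which it shares 0 exonic bases, and Fyco1 was also lower (log2FC -0.65, edgeR adjusted p = 0.000243).

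The 4 lower receptors moved with the Treg cell markers, of which 6 of 6 fell. Markers of some other cells that can carry these receptors were lower too. All 8 markers of natural killer and cytotoxic cells fell, with sums of 68.5 to 69.8 CPM in the TNFR2-deficient and 196 to 209 CPM in the TNFR2-positive libraries, and all 6 of dendritic cells, with sums of 39.0 to 39.6 CPM in the TNFR2-deficient and 86.4 to 95.9 CPM in the TNFR2-positive libraries. Of 5 markers of gamma delta and innate-like T cells, 4 rose and 1 fell, with sums of 367 to 384 CPM in the TNFR2-deficient and 319 to 322 CPM in the TNFR2-positive libraries, most of it from Blk, a kinase gene that B cells also express. Zbtb16, the marker that fell, had 4, 10 and 3 reads in the TNFR2-deficient and 28, 15 and 24 in the TNFR2-positive libraries. It passed the filter on low counts only through the TNFR2-positive ones. Among those that rose, Sox13 had 9, 11 and 14 reads in the TNFR2-positive libraries and passed only through the TNFR2-deficient ones. No marker of these lists was at 0 in a whole group. Across all genes tested, 35.1% were called higher and 34.2% lower. Their part in the fall of the receptors was not tested.

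Ccr10, the receptor for CCL27 and CCL28 on skin-homing T cells and IgA plasma cells, was near the floor of detection. It had 3, 1 and 0 reads in the TNFR2-deficient libraries, against 6, 2 and 3 reads in the TNFR2-positive libraries. The groups overlapped and Ccr10 did not pass the filter. The 4 reads against 11 gave a ratio of 0.337 with an exact 95% counting interval of 0.0782 to 1.14. No difference was detected at this depth, and the interval is wide enough to include a large fall. Of 5 plasma cell markers 4 were tested, of which 2 fell and 0 rose, with sums of 216 to 225 CPM in the TNFR2-deficient and 370 to 403 CPM in the TNFR2-positive libraries. The 2 that fell were Irf4 and Prdm1, which effector Treg cells also express. Jchain, the joining chain of secreted IgA and IgM, was at 118.0 ± 3.24 CPM in the TNFR2-deficient and 108.4 ± 4.96 CPM in the TNFR2-positive libraries and was not called (log2FC 0.12, edgeR adjusted p = 0.087). The plasma cell surface proteoglycan gene Sdc1 was not called either (log2FC 0.20, edgeR adjusted p = 0.154).

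**Figure D3:**
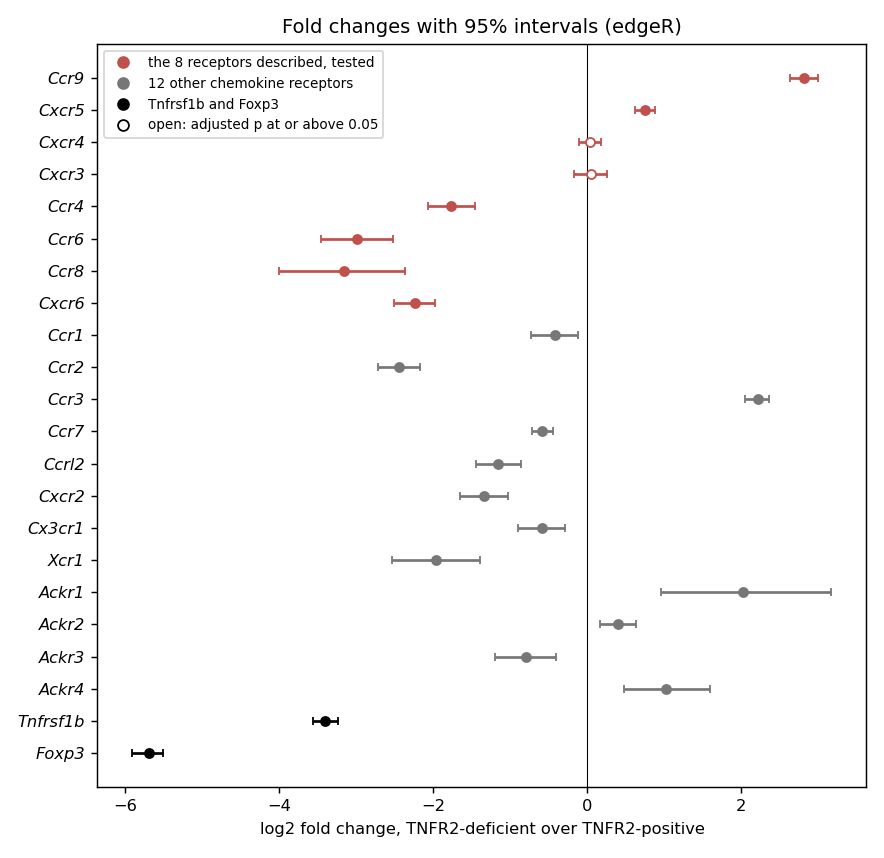
log2 fold change (TNFR2-deficient over TNFR2-positive) with 95% interval from edgeR for the 8 receptors tested (red), 12 other chemokine receptors (grey) and Tnfrsf1b and Foxp3 (black); open points did not pass the adjusted p threshold of 0.05. Ccr9 stands at 2.82 and Ccr8 at -3.16, and the intervals of Cxcr4 and Cxcr3 span 0.

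Levels of different receptors were compared per kilobase of exon (RPKM from TMM-scaled CPM). In the TNFR2-deficient libraries the order was Cxcr4 (168 ± 9.07 RPKM), Cxcr5 (66.6 ± 1.62), Ccr9 (23.3 ± 1.26), Cxcr3 (5.88 ± 0.419), Ccr4 (1.42 ± 0.267), Cxcr6 (1.22 ± 0.0219), Ccr6 (1.05 ± 0.398), Ccr8 (0.288 ± 0.243) and Ccr10 (0.0338 ± 0.0382; SD, n = 3). Ccr4, Cxcr6 and Ccr6 were within their spread of each other. In the TNFR2-positive libraries it was Cxcr4 (163 ± 8.97 RPKM), Cxcr5 (39.4 ± 2.14), Ccr6 (8.32 ± 1.69), Cxcr6 (5.77 ± 0.187), Cxcr3 (5.70 ± 0.0866), Ccr4 (4.82 ± 0.442), Ccr9 (3.30 ± 0.358), Ccr8 (2.66 ± 0.101) and Ccr10 (0.0965 ± 0.0467; SD, n = 3). Cxcr6 and Cxcr3 were within their spread of each other. Cxcr4 and Cxcr5 thus led in both groups, while Ccr9 was at rank 3 in the TNFR2-deficient and rank 7 in the TNFR2-positive libraries.

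Of the summed RPKM of the 9 receptors, Ccr9 made up 8.70% ± 0.195 in the TNFR2-deficient and 1.42% ± 0.209 in the TNFR2-positive libraries. Cxcr5 made up 24.9% ± 1.52 in the TNFR2-deficient and 16.9% ± 0.581 in the TNFR2-positive libraries. Cxcr4 made up 62.7% ± 1.19 in the TNFR2-deficient and 69.9% ± 1.40 in the TNFR2-positive libraries. Ccr4, Ccr6, Ccr8 and Cxcr6 each averaged 0.106% to 0.527% in the TNFR2-deficient libraries, against 1.14% to 3.59% in the TNFR2-positive ones. The annotated Ccr9 gene includes a retained-intron transcript, and with the longest protein-coding transcript of each gene as its length (5197 in place of 10260 bases for Ccr9) the Ccr9 share was 15.2% in the TNFR2-deficient and 2.64% in the TNFR2-positive libraries. By that length Ccr9 was at rank 4 in the TNFR2-positive libraries.

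**Figure D4:**
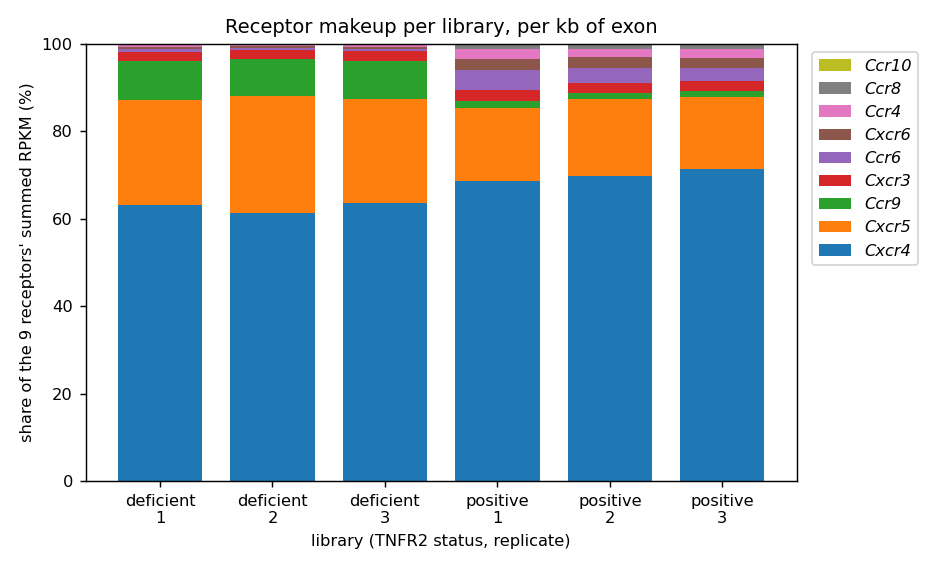
Share of each receptor in the summed RPKM of the 9 receptors (percent, linear axis), 1 bar per library, the 3 TNFR2-deficient libraries left of the 3 TNFR2-positive ones. Cxcr4 takes 61.3% to 63.6% of the TNFR2-deficient and 68.6% to 71.4% of the TNFR2-positive bars, and the Ccr9 segment is 8.53% to 8.91% of the TNFR2-deficient and 1.27% to 1.66% of the TNFR2-positive bars.

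Foxp3, the transcription factor of Treg cells, fell further than any of these receptors, to 1.44 ± 0.0974 CPM in the TNFR2-deficient libraries, against 75.5 ± 2.14 CPM in the TNFR2-positive ones (log2FC -5.70, edgeR adjusted p = 1.46e-12). Relative to Foxp3 within each library, on log2(CPM + 0.5) levels, the lower receptors were higher in the TNFR2-deficient libraries. Any gene that fell less than Foxp3 is higher by this ratio. Cxcr4, which was not called, had a ratio to Foxp3 of 156 in the TNFR2-deficient and 3.89 in the TNFR2-positive libraries. The mean ratio to Foxp3 was 2.49 in the TNFR2-deficient and 0.202 in the TNFR2-positive libraries for Ccr4. For Ccr6 it was 1.47 in the TNFR2-deficient and 0.257 in the TNFR2-positive libraries, and for Cxcr6 1.47 in the TNFR2-deficient and 0.153 in the TNFR2-positive libraries. Relative to Trac, which encodes the constant part of the TCR alpha chain, Ccr9 had a ratio of 1.14 in the TNFR2-deficient and 0.241 in the TNFR2-positive libraries. Cxcr5 had 1.06 in the TNFR2-deficient and 0.931 in the TNFR2-positive libraries, and Cxcr4 had 1.45 in the TNFR2-deficient and 2.09 in the TNFR2-positive libraries. The lower receptors stayed lower relative to Trac. Ccr4 had 0.0231 in the TNFR2-deficient and 0.109 in the TNFR2-positive libraries. In the same order, Ccr6 had 0.0136 and 0.138, Ccr8 0.00387 and 0.0256, and Cxcr6 0.0136 and 0.0823. The 0.5 CPM was added for these ratios too. Ccr8 averaged 0.339 CPM in the TNFR2-deficient libraries, less than the amount added. Its ratio there is therefore too high, and its fall relative to Trac is understated. Trac itself was higher, at 208.6 ± 3.95 CPM in the TNFR2-deficient libraries and 141.1 ± 1.71 CPM in the TNFR2-positive ones (log2FC 0.56, edgeR adjusted p = 3.24e-06), and Cxcr4 did not pass the threshold. These ratios are given without a test.

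Of 14 other chemokine receptors 13 were tested, of which 4 rose and 9 fell (median log2FC -0.58). Of all genes tested, 35.1% were called higher and 34.2% lower. Ackr1, among those that rose, had 1, 3 and 7 reads in the TNFR2-positive libraries. It passed the filter on low counts only through the TNFR2-deficient ones. Ccr3, the eotaxin receptor, rose to 47.0 ± 0.544 CPM in the TNFR2-deficient libraries, against 10.1 ± 0.615 CPM in the TNFR2-positive ones (log2FC 2.22, edgeR adjusted p = 4.31e-10). Ccr2, the receptor for CCL2 on monocytes and effector T cells, fell to 6.17 ± 1.0 CPM in the TNFR2-deficient libraries, against 33.6 ± 4.34 CPM in the TNFR2-positive ones (log2FC -2.44, edgeR adjusted p = 2.11e-08). Ccr7, which leads lymphocytes into lymph nodes, fell by 0.58 on the log2 scale (edgeR adjusted p = 7.45e-06). On mouse chromosome 9, which holds 14 of the 23 receptor genes of both lists, neighbouring receptor genes were called in different directions. Ccr9 (higher) is followed among these receptors by Cxcr6, Xcr1 and Ccr1 (lower), Ccr3 (higher) and Ccr2 (lower). Xcr1 and Ccr1 had a log2FC of -1.96 and -0.42 (edgeR adjusted p = 3.68e-05 and 0.017).

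Of 14 chemokine ligands of the receptors 8 were tested, of which 4 rose and 2 fell (median log2FC 0.49). The shares over all genes tested were 35.1% higher and 34.2% lower. Cxcl12, among those that rose, had 4, 4 and 5 reads in the TNFR2-positive libraries. It passed the filter on low counts only through the TNFR2-deficient ones. The 14 summed to 32.3 to 39.3 CPM in the TNFR2-deficient and 39.0 to 40.1 CPM in the TNFR2-positive libraries. Ccl22, the CCR4 ligand made by dendritic cells and macrophages, fell to 3.47 ± 0.287 CPM in the TNFR2-deficient libraries, against 14.7 ± 1.0 CPM in the TNFR2-positive ones (log2FC -2.08, edgeR adjusted p = 3.76e-08). Ccl27a, the CCR10 ligand, was at 6.96 ± 0.617 CPM in the TNFR2-deficient libraries and 2.48 ± 0.371 CPM in the TNFR2-positive ones (log2FC 1.49, edgeR adjusted p = 5.05e-06). Ccl25, the CCR9 ligand of thymic and gut epithelium, had a log2FC of -0.25 (edgeR adjusted p = 0.141).

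Genes of the machinery behind the receptors moved in both directions. Of 20 signalling and migration genes 19 were tested, of which 8 rose and 9 fell (median log2FC -0.19). Across all genes tested, 35.1% were called higher and 34.2% lower. Gnai2, the main Gi alpha subunit of lymphocytes, rose by 0.54 on the log2 scale (edgeR adjusted p = 7.12e-06). Dock2, the Rac activator required for lymphocyte migration, fell by 0.93 (edgeR adjusted p = 3.2e-06), and Plcb2, a phospholipase activated by G protein beta-gamma subunits, fell by 0.82 (edgeR adjusted p = 7.25e-07). With the relation of fold change to exonic length removed, both were still called lower. The log2FC was then -0.39 for Dock2 and -0.57 for Plcb2. Of 14 genes of desensitisation 5 rose and 6 fell (median log2FC -0.16). The number higher was 3 when TNFR2-deficient replicate 1, 2 or 3 was left out in turn. Rgs1, a brake on Gi signalling that limits the response to CXCL12, fell to 23.9 ± 1.76 CPM in the TNFR2-deficient libraries, against 159.5 ± 1.0 CPM in the TNFR2-positive ones (log2FC -2.74, edgeR adjusted p = 5.53e-11). Rgs16, another such brake, fell by 3.61 on the log2 scale (edgeR adjusted p = 1.03e-07).

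Of 16 transcription factors linked to these receptors 15 were tested, of which 6 rose and 7 fell (median log2FC -0.18). The shares over all genes tested were 35.1% higher and 34.2% lower. Tcf7, whose product TCF-1 acts in thymocytes and naive lymphocytes of the T lineage, rose to 994.6 ± 9.08 CPM in the TNFR2-deficient libraries, against 221.7 ± 3.80 CPM in the TNFR2-positive ones (log2FC 2.17, edgeR adjusted p = 6.3e-11). Bcl6, the factor of follicular T and B cells that goes with Cxcr5, rose by 0.69 on the log2 scale (edgeR adjusted p = 8.19e-07). Irf4 and Prdm1, factors of effector Treg and plasma cells, fell by 1.54 and 1.37 (edgeR adjusted p = 9.23e-09 and 5.96e-07).

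The genes with the most similar profile to each receptor were sought among 11129 named protein-coding genes outside the lists with a mean of at least 1 CPM, by Euclidean distance of centred log2 levels over the 6 libraries. Ccr9 was closest to Rapgef3, an exchange factor activated by cyclic AMP, and Tube1, epsilon tubulin (distance 0.207 and 0.257). Cxcr5 was closest to Il16 and Ucp2 (0.0428 and 0.0543), Cxcr4 to Pcnp and Nop16 (0.0453 and 0.0565), and Cxcr3 to Rbm18 and Ppp1r10 (0.0591 and 0.0657). Ccr4 was closest to Steap4 and Pdcd1, the gene of the inhibitory receptor PD-1 (0.106 and 0.232). Ccr6 was closest to Gbp10 and Pik3c2a (0.308 and 0.460), Cxcr6 to Lad1 and Sik1 (0.116 and 0.143), and Ccr8 to Pla2g4f and Fn1 (0.275 and 0.330). These distances rest on 6 libraries in 2 groups and describe likeness only. Pla2g4f, like Ccr8, was low in the TNFR2-deficient libraries (0.303, 0.090 and 0.541 CPM). Both passed the filter on low counts only through the TNFR2-positive libraries, so their likeness within the TNFR2-deficient group rests on few reads.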

How the data were processed

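RNA-seq counts per gene were compared between 3 TNFR2-deficient and 3 TNFR2-positive libraries. Per the labels' protocols, oligo-dT beads selected the mRNA, and libraries were amplified by PCR. HISAT2 2.1.0 and build GRCm39 are named per the submitters' processing notes. The counting program, annotation and strand setting were not given in the sources used here. Raw whole-number counts were deposited by the authors. Of 32377 identifiers 30529 had a symbol in the name table, and columns were matched to samples by title. Exonic lengths, overlaps and gene order came from GENCODE M21 (GRCm38), so no gene coordinates are printed.

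After filterByExpr and TMM scaling, counts were tested over 17022 genes with the quasi-likelihood test of edgeR 4.0.16 in R 4.3.3, with group as the only term. Fold changes are log2 (log2FC). Replicates are the numbered libraries, and no pair was within sampling noise. The test was checked on simulated data. Alternatives used DESeq2 1.42.0, limma 3.58.1, other scalings and filters, the replicate number as a block, removal of the relation to exonic length by splines, and leaving out each library. The receptors and lists were chosen with earlier results of these data known. The named genes were all 9 receptors, Tnfrsf1b and Foxp3, the 2 genes lowest in adjusted p within each list, genes overlapping a receptor, markers, and the 2 genes of most similar profile to each receptor with a mean of at least 1 CPM. Gnai2, Tbx21, Rora, Bcl6, Irf4, Prdm1, Ccr7, Ccl25, Xcr1 and Ccr1 were named after their values were seen. Some genes that this rule names are not reported here. The promoter table is from RefSeq.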

Additional observations from a re-analysis of the deposited data

How the results depend on the processing

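Over 17 alternatives, Ccr4, Ccr6, Ccr8, Ccr9 and Cxcr6 kept their direction and their call, with a log2FC of -1.92 to -1.63, -3.34 to -2.81, -4.11 to -2.81, 2.77 to 3.30 and -2.45 to -2.19. Cxcr5 lost its call only when tested against a log2 fold change of 1 (log2FC 0.76, edgeR adjusted p = 1). Cxcr4 and Cxcr3 changed sign with the exonic length relation removed (log2FC -0.17 each, edgeR adjusted p = 0.0121 and 0.166), and over the fits leaving out 1 library they spanned -0.01 to 0.07 and -0.02 to 0.07. The cause was not tested. The relation itself had a Spearman rho of -0.298 between log2FC and exonic length across genes, which are not independent replicates. Without a filter Ccr10 had a log2FC of -1.43 (edgeR adjusted p = 0.296).

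Tested against a log2 fold change of 1, 764 genes were higher and 1434 lower, with 1 of the receptors higher and 4 lower. In that setting 1 other chemokine receptor rose and 4 fell, 1 ligand rose and 1 fell, 0 signalling genes rose and 0 fell, 0 desensitisation genes rose and 2 fell, and 3 transcription factors rose and 3 fell. The desensitisation genes called higher were 3 with DESeq2, 3 with the length relation removed and 3 to 6 leaving out 1 library. With lengths of the longest protein-coding transcript, chosen after seeing the data, Ccr9 made up 15.2% of the summed RPKM in the TNFR2-deficient and 2.64% in the TNFR2-positive libraries, Cxcr4 55.5% in the TNFR2-deficient and 66.2% in the TNFR2-positive libraries, and Cxcr5 25.8% in the TNFR2-deficient and 18.7% in the TNFR2-positive libraries.

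Among the other named genes, Bcl9l and Nop16 changed sign with the length relation removed (log2FC 0.17 and -0.16), Ppp1r10 without TNFR2-deficient replicate 3 (-0.01, with a range of -0.01 to 0.10 leaving out 1 library), and Pcnp, with a log2FC of 0.01, in 8 alternatives (-0.14 with the length relation removed, -0.03 with DESeq2 and RLE scaling, -0.01 with the 1 CPM filter and library size only, and -0.04 to 0.04 leaving out 1 library). Libraries of the 2 groups share replicate numbers, but the deviations of same-numbered libraries correlated at 0.0705, 0.0962 and -0.0901, so the numbers were not taken as pairs. With the replicate block 6005 genes were higher and 5851 lower, and each of the 8 receptors tested kept its direction and its side of the threshold. Bcl9l, not called in the reported fit, was called lower with that block (adjusted p = 0.0489), DESeq2 (0.0315), RLE scaling (0.0328), library size only (0.0446), the 1 CPM filter (0.0456) and without TNFR2-positive replicate 3 (0.0074).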
